A study of Homo sapiens with 8 samples.

Results

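Replication-dependent histone genes encode the linker histone H1 and the core histones H2A, H2B, H3 and H4 that package newly copied DNA. They were taken as all genes whose symbol in the deposited tables starts with HIST1H, HIST2H, HIST3H or HIST4H, and 59 such genes were among 16608 with counts in all 8 libraries. By class they were 6 H1, 14 H2A, 16 H2B, 11 H3 and 12 H4 genes. By cluster 53 belonged to HIST1, 5 to HIST2 and 1 to HIST4, and no HIST3 gene was among them. One of the 59, HIST1H2APS4, a pseudogene of the H2A class, was removed by a filter on low counts, so 58 of the 16320 genes tested were histone genes.

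The RNA came from SupB15, an established human leukemia line labelled as Philadelphia chromosome-positive precursor-B acute lymphoblastic leukemia, a single line grown in culture. The 4 groups, of 2 libraries each, were the solvent DMSO for 46 h, 2 µM of 1035 for 46 h, 0.1 µM doxorubicin for 10 h, and, called the combination here, 36 h of 2 µM 1035 and then 10 h of 0.1 µM doxorubicin. The series title names 1035, known only by this code, as an inhibitor of histone deacetylases, enzymes that take acetyl groups off histones, and doxorubicin is an anthracycline that poisons topoisomerase II. Libraries were made from total RNA after depletion of ribosomal RNA, a preparation that also keeps mRNA without a poly(A) tail. The sources used here do not give whether 1035 stayed in the medium during doxorubicin. Treatment lasted 46 h in all groups but doxorubicin alone, where it lasted 10 h. In doxorubicin against DMSO, in the combination against doxorubicin and in the interaction, the drug and the length of treatment therefore cannot be told apart. For 1035 itself the labels give 36 h in the combination and 46 h alone. In the combination against 1035, doxorubicin and any difference in the length of 1035 treatment thus cannot be told apart either.

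The libraries held between 11760542 and 18144670 counted reads. The precursor-B markers CD79A, CD79B, PAX5, EBF1, VPREB1, IGLL1, DNTT, RAG1 and CD22 had counts in every library. Of the markers of other cells, 1 of 6 for T cells, 5 of 6 for myeloid cells, 0 of 5 for erythroid cells and 2 of 5 for stromal cells had counts in all libraries. The T-cell marker TRAC was at 28.0 to 42.6 counts per 1000000 reads (CPM), the myeloid markers summed to 24.3 to 42.3 CPM, and the stromal markers COL1A1 and PDGFRB to 25.8 to 71.2 CPM, with the defining T-cell genes CD3D, CD3E and CD3G and the hemoglobin genes not held. Some of these genes moved with 1035: IGLL1 fell (-1.80 ± 0.07; log2 fold change of 1035 against DMSO ± its standard error, SE). VPREB1 (-0.69 ± 0.06), DNTT (-0.88 ± 0.06), EBF1 (-0.21 ± 0.06) and PAX5 (-0.20 ± 0.07) fell too. CD22 (0.80 ± 0.06), CD79A (0.43 ± 0.06) and CD79B (0.31 ± 0.06) rose, and RAG1 did not pass (-0.11 ± 0.06). TRAC fell (-0.38 ± 0.09), 3 of the 5 myeloid markers rose and 1 fell, and COL1A1 (3.24 ± 0.54) and PDGFRB (1.32 ± 0.09) rose. Their part in the histone results was not tested.

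Most mRNAs end in a poly(A) tail, but the mRNAs of these genes mostly end just after a short stem-loop that is cut by the U7 small nuclear ribonucleoprotein and bound by the stem-loop binding protein SLBP. The genes are transcribed in S phase from nuclear sites called histone locus bodies, organised around NPAT, a substrate of cyclin E and CDK2. When DNA replication stops, the mRNAs are tailed with uridines and degraded, so their level is widely used as a mark of S phase. Some of the genes can also make polyadenylated mRNA outside S phase.

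The promoters of the classes carry different elements, and 5 are printed here because these genes stand at the ends of the responses described next: HIST1H1A rose under 1035, HIST1H1E was among the genes that fell least, and HIST1H1B, HIST1H2AB and HIST1H2BO were among those that fell most in their classes. Each is the 250 bases before the gene start in the RefSeq table for GRCh38.p14, 5′ to 3′ on the gene's strand. Capitals mark matches on either strand to AAACACA (the H1 box), ATTTGCAT (the octamer bound by POU2F1), CCAAT and TATAAA.
HIST1H1A: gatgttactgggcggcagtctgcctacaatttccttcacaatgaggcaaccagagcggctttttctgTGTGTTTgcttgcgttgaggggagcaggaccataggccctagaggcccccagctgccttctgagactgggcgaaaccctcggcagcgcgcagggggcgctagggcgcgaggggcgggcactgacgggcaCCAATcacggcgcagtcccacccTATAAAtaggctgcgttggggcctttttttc
HIST1H1B: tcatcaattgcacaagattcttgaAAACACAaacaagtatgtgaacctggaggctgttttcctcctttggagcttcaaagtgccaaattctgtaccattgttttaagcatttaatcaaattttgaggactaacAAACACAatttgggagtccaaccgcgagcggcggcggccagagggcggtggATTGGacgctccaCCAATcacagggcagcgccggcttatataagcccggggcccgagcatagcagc
HIST1H1E: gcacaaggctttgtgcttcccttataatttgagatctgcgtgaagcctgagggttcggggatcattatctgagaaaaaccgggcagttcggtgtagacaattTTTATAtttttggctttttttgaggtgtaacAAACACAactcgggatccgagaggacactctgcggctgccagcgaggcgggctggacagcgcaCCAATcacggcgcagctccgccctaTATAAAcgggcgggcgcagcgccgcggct
HIST1H2AB: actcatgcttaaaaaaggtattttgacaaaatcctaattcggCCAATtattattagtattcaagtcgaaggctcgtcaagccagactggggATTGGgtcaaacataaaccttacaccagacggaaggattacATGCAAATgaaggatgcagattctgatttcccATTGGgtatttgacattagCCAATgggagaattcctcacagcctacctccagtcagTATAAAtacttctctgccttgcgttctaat
HIST1H2BO: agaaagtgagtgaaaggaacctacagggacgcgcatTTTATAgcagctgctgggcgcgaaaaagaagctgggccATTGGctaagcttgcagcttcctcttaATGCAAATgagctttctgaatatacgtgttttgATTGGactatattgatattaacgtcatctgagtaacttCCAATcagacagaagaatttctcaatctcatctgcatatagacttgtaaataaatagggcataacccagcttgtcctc

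In the same order the windows lie at chr6:26017788-26018037, minus strand; chr6:27867589-27867838, minus strand; chr6:26156079-26156328, plus strand; chr6:26033619-26033868, minus strand; and chr6:27893175-27893424, plus strand. Of the 59 genes, 53 matched a promoter in the table by symbol or identifier. The H1 box was in all 6 H1 promoters and in 0 of the 47 others, against 4.83% of all 34943 promoters of this length. The octamer was in 10 of 12 H2A and 13 of 16 H2B promoters and in none of the 25 H1, H3 and H4 promoters, against 1.63% of all. CCAAT was in every H1, H2A, H2B and H3 promoter that matched and in 3 of 10 H4 promoters, against 32.0% of all, and TATAAA was in 36 of 53, against 10.8%. Among the H1 genes, HIST1H1A held the H1 box only on the reverse strand, 183 bases before the start, whereas HIST1H1C, HIST1H1D, HIST1H1B, HIST1H1E and HIST1H1T each held it on the forward strand 105 to 119 bases before the start. HIST1H1B held another at 226 bases, and HIST1H1C another on the reverse strand at 242. These matches describe letters and not occupied sites.

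The stem-loop was looked for on the transcribed strand as GG, any 2 bases, CTTTT, any base, AG, any 2 bases and CC, in the annotated transcripts of GENCODE v29 (GRCh38) and found in 22 of the 59 genes. It took 5 forms. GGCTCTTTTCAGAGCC was in 11 genes, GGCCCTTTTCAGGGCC in 5, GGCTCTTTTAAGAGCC in 4, and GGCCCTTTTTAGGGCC and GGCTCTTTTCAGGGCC in 1 each. One example of each form, and the 3 genes of HIST2 and HIST4 that hold it, are printed with 5 bases on either side and the stem-loop in capitals, since these genes differ in how far they fell. The 3 are HIST2H2BE, HIST2H2BF and HIST4H4.
HIST1H2BC: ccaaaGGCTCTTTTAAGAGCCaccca
HIST1H3H: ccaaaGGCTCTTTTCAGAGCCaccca
HIST1H2AG: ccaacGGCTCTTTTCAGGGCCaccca
HIST1H4E: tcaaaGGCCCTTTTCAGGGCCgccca
HIST1H4I: aaaaaGGCCCTTTTTAGGGCCcctaa
HIST2H2BE: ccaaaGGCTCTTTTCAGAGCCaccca
HIST2H2BF: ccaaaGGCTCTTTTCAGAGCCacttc
HIST4H4: caaaaGGCCCTTTTCAGGGCCcccaa

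These 26 bases lie at chr6:26123467-26123492, minus strand; chr6:27810511-27810536, plus strand; chr6:27133510-27133535, plus strand; chr6:26204996-26205021, plus strand; chr6:27139649-27139674, plus strand; chr1:149886183-149886208, minus strand; chr1:149811880-149811905, minus strand; and chr12:14770719-14770744, minus strand. In 16 of the 22 genes an annotated transcript ran more than 100 bases past the stem-loop, as for HIST1H2BC, HIST1H3H, HIST2H2BE and HIST4H4. In the other 6 the transcript that holds the stem-loop ended within 100 bases of it. HIST1H2BD was among these, though its gene model of 2 transcripts runs on to chr6:26171349, so another annotated form ends farther on. For the other 37 genes the annotated transcripts held no such stem-loop. Many of these transcripts were short, such as 312 bases for HIST1H4A, 381 for HIST1H2BO and 411 for HIST1H3B. Such lengths leave little or no sequence after the coding end, where the stem-loop was looked for. Absence from the annotation is therefore not absence from the gene. The submitters' processing notes name the build hg19, so these GRCh38 positions place the genes and were not used to count reads.

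In DMSO the 59 genes took 2.32% and 2.24% of the counted reads of the 2 libraries. Per kilobase of gene length, HIST1H3B was highest in DMSO with a level of 2359 ± 129.8 CPM per kb (mean ± SD, n = 2 here and below). HIST1H4C with 2053 ± 74.1 and HIST1H1B with 2048 ± 58.2 CPM per kb came next and did not differ beyond their spread. HIST1H4D had 1633 ± 51.2, HIST1H1C 1565 ± 33.2 and HIST1H2BH 1551 ± 38.4 CPM per kb. Lowest of the genes tested were HIST1H1T, the testis linker histone, with 1.20 ± 0.664, HIST1H1A with 3.48 ± 0.614, and HIST4H4, which encodes H4 far from the other clusters, with 22.1 ± 2.52 CPM per kb. The gene length is the one implied by the deposited counts and FPKM values, and a long annotated model such as that of HIST4H4 lowers a level per kb.

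Under 1035 nearly the whole family was lower. Against DMSO, 55 of the 58 genes fell and 1 rose at a false discovery rate (FDR) of 5% by edgeR's quasi-likelihood test with Benjamini-Hochberg adjustment over all 16320 genes tested, against 24.8% of all genes lower and 24.2% higher. The median log2 fold change of the 58 genes was -0.74, against 0.01 over all genes tested. In 55 of the 58 both libraries with 1035 lay below both DMSO libraries, against 36.7% of all genes. The 59 genes together took 1.41% and 1.56% of the reads with 1035, below both DMSO libraries, and their summed level was 62.2% of that in DMSO. In such bulk RNA, fewer cells in S phase and less histone mRNA per cell cannot be told apart. All 26 of the genes named here with library values that passed did so whichever library was left out. In the authors' deposited table for this comparison, 55 of the 59 genes were lower and 1 higher at their adjusted p below 0.05. Here and below, the share of all genes called in the authors' tables was not counted.

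All 5 classes were lower, the core classes by more than H1. The median log2 fold change was -0.74 for 13 H2A, -0.78 for 16 H2B, -0.76 for 11 H3 and -0.67 for 12 H4 genes, and -0.43 for 6 H1 genes. All H2A, H2B and H3 genes tested, 11 of 12 H4 genes and 4 of 6 H1 genes fell. The summed H2A level was 4652 and 4549 CPM in DMSO and 2488 and 2817 CPM with 1035. The summed H3 level was 5436 and 5068 and 2950.0 and 3238 CPM. The summed H1 level was 4531 and 4394 and 3058 and 3185 CPM. In each class both libraries with 1035 lay below both of DMSO. What was left of the DMSO level was 57.7% for H2A, 58.9% for H3, 61.0% for H2B, 64.7% for H4 and 69.9% for H1. As a share of all histone reads, H1 went from 18.9% and 19.1% in DMSO to 21.9% and 20.8% with 1035, and H2A from 19.4% and 19.7% to 17.8% and 18.4%, and neither pair overlapped. Classes were not tested against each other, since their members share sequence and sit side by side.

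**Figure D1:**
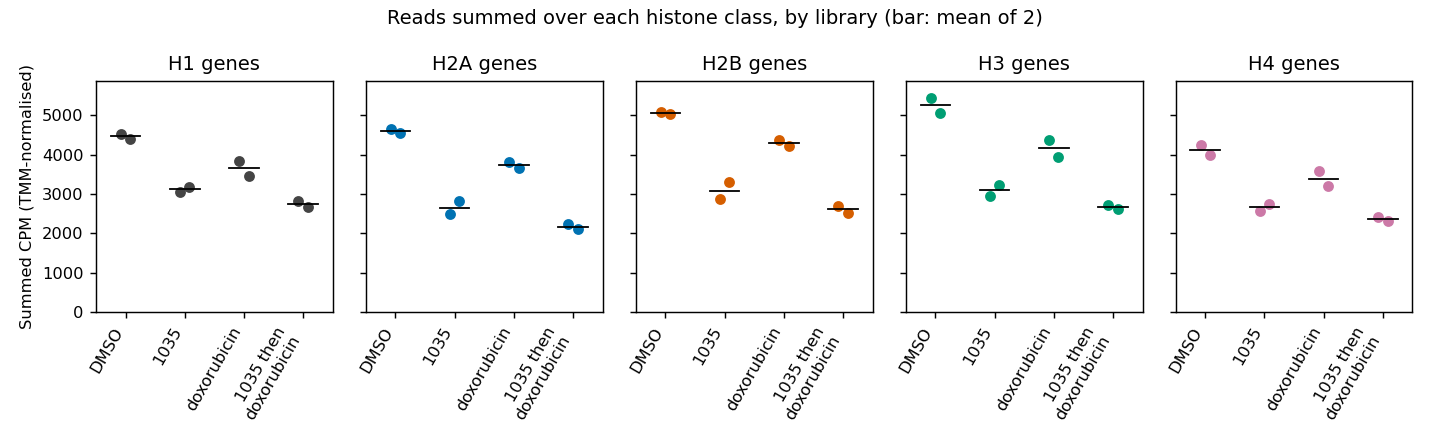
Reads summed over the genes of each histone class, in TMM-normalised CPM on a linear axis from 0, for each of 2 libraries per group (points) with their mean (bar). In every class DMSO is highest, doxorubicin next, 1035 lower and the combination lowest, with no overlap between 1035 and the combination.

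Among the genes for the core histones H3 and H4, the most read H3 gene was HIST1H3B. Its level was 1158 and 1072 CPM in DMSO and 618 and 639.7 CPM with 1035, a log2 fold change of -0.83 ± 0.06 (SE; edgeR adjusted p = 1.08e-14). HIST1H3D had 919 and 879.6 and 498 and 568 CPM (-0.76 ± 0.06), HIST1H3J had 632 and 611 and 342 and 387 CPM (-0.77 ± 0.06), and both fell. The libraries with 1035 were the lower ones in each of these genes, with no overlap. HIST1H3E, read far less, fell most of the H3 genes, from 27.3 and 24.5 CPM to 10.5 and 12.1 CPM (-1.20 ± 0.11, edgeR adjusted p = 7.70e-12). HIST1H3H went from 471 and 429.5 to 270.0 and 298 CPM (-0.67 ± 0.08) and fell too. HIST1H3I fell least of the H3 genes (-0.53 ± 0.06).

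Of the H4 genes, which encode 1 and the same protein, HIST1H4C, the most read, fell from 875 and 831 CPM in DMSO to 604 and 623 CPM with 1035 (-0.48 ± 0.06, edgeR adjusted p = 1.01e-08). HIST1H4D fell from 613 and 587 to 407 and 424 CPM (-0.53 ± 0.07) and HIST1H4E from 594 and 567 to 328 and 374 CPM (-0.73 ± 0.06). HIST1H4K had 33.9 and 30.0 and 19.4 and 22.4 CPM and fell by a like amount (-0.61 ± 0.10). The groups did not overlap in any of the 4. HIST1H4A fell most (-1.04 ± 0.07) and HIST1H4F least (-0.39 ± 0.06) among the genes that passed. HIST4H4 (ENSG00000197837; chr12:14767999-14771131, minus strand, GRCh38) was the exception. It had 61.8 and 52.6 CPM in DMSO and 53.6 and 55.5 CPM with 1035, so the libraries with 1035 lay between the 2 DMSO libraries, and its log2 fold change of -0.07 ± 0.09 did not pass (edgeR adjusted p = 0.536). Scaled by total counts alone it was 0.00015, and without the first DMSO library 0.055.

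HIST1H2AB (ENSG00000137259; chr6:26033176-26033568, minus strand, GRCh38), an H2A gene, fell most of all 58. Its level was 269 and 245 CPM in DMSO and 97.9 and 102 CPM with 1035, or 38.8% of the DMSO mean, with a log2 fold change of -1.37 ± 0.06 (edgeR adjusted p = 1.30e-20). The next H2A genes were HIST2H2AB (-1.04 ± 0.07) and HIST1H2AD, which went from 441 and 439 to 222 and 243 CPM (-0.92 ± 0.06). HIST1H2AG, the most read H2A gene, fell from 698 and 696 to 363 and 402 CPM (-0.87 ± 0.06). HIST1H2AE fell from 613 and 571 to 345 and 379 CPM (-0.71 ± 0.06), and HIST1H2AH from 455 and 447 to 255 and 297 CPM (-0.71 ± 0.06). In each of these both libraries with 1035 were below both DMSO libraries. HIST1H2AI fell least (-0.57 ± 0.06), so every H2A gene tested fell, over a range of log2 fold changes from -1.37 to -0.57.

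The H2B genes spanned a wider range. HIST1H2BO fell from 259 and 255 CPM to 108 and 122 CPM (-1.17 ± 0.06, edgeR adjusted p = 1.07e-18), and HIST1H2BJ from 308 and 301 to 150.3 and 167 CPM (-0.94 ± 0.06). HIST1H2BH, the most read H2B gene, fell from 672 and 648 to 425 and 475 CPM (-0.55 ± 0.06). HIST2H2BE went from 159 and 166 to 107 and 128 CPM (-0.47 ± 0.07). All 4 fell with no overlap between groups. HIST2H2BF fell least of the class, -0.30 ± 0.06 on the log2 scale, and HIST1H2BE next least, -0.43 ± 0.06.

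The linker histone genes differed most among themselves. HIST1H1B fell from 1652 and 1587 CPM in DMSO to 921 and 983 CPM with 1035 (-0.77 ± 0.06, edgeR adjusted p = 5.14e-14), close to the core histone genes. HIST1H1C fell from 1165 and 1130.2 to 828 and 837 CPM (-0.46 ± 0.06), and HIST1H1E from 901 and 895 to 705 and 752 CPM (-0.30 ± 0.06, edgeR adjusted p = 4.96e-05). HIST1H1D fell by an amount between these (-0.41 ± 0.06). The order HIST1H1E, HIST1H1D, HIST1H1C is not set apart beyond the standard errors of neighbours, whereas HIST1H1B lay several standard errors below all 3. Of the reads on H1 genes, HIST1H1B held 36.5% and 36.1% in the DMSO libraries and 30.1% and 30.9% with 1035. HIST1H1E held 19.9% and 20.4% and 23.0% and 23.6%.

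HIST1H1A (ENSG00000124610; chr6:26017085-26017732, minus strand, GRCh38), a linker histone gene read mainly in a few tissues such as thymus and testis, rose. It had 48 and 36 counts in the DMSO libraries and 100 and 102 counts with 1035, or 3.06 and 2.38 CPM and 7.20 and 8.29 CPM. Both libraries with 1035 were above both of DMSO, with a log2 fold change of 1.50 ± 0.20 (edgeR adjusted p = 4.36e-08). Even so, it held 0.235% and 0.260% of the H1 reads with 1035. HIST1H1T, the testis gene, had 19 and 8 counts in DMSO and 6 and 7 with 1035. These counts are too few to show a difference at this depth (-0.80 ± 0.58, edgeR adjusted p = 0.261).

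**Figure D2:**
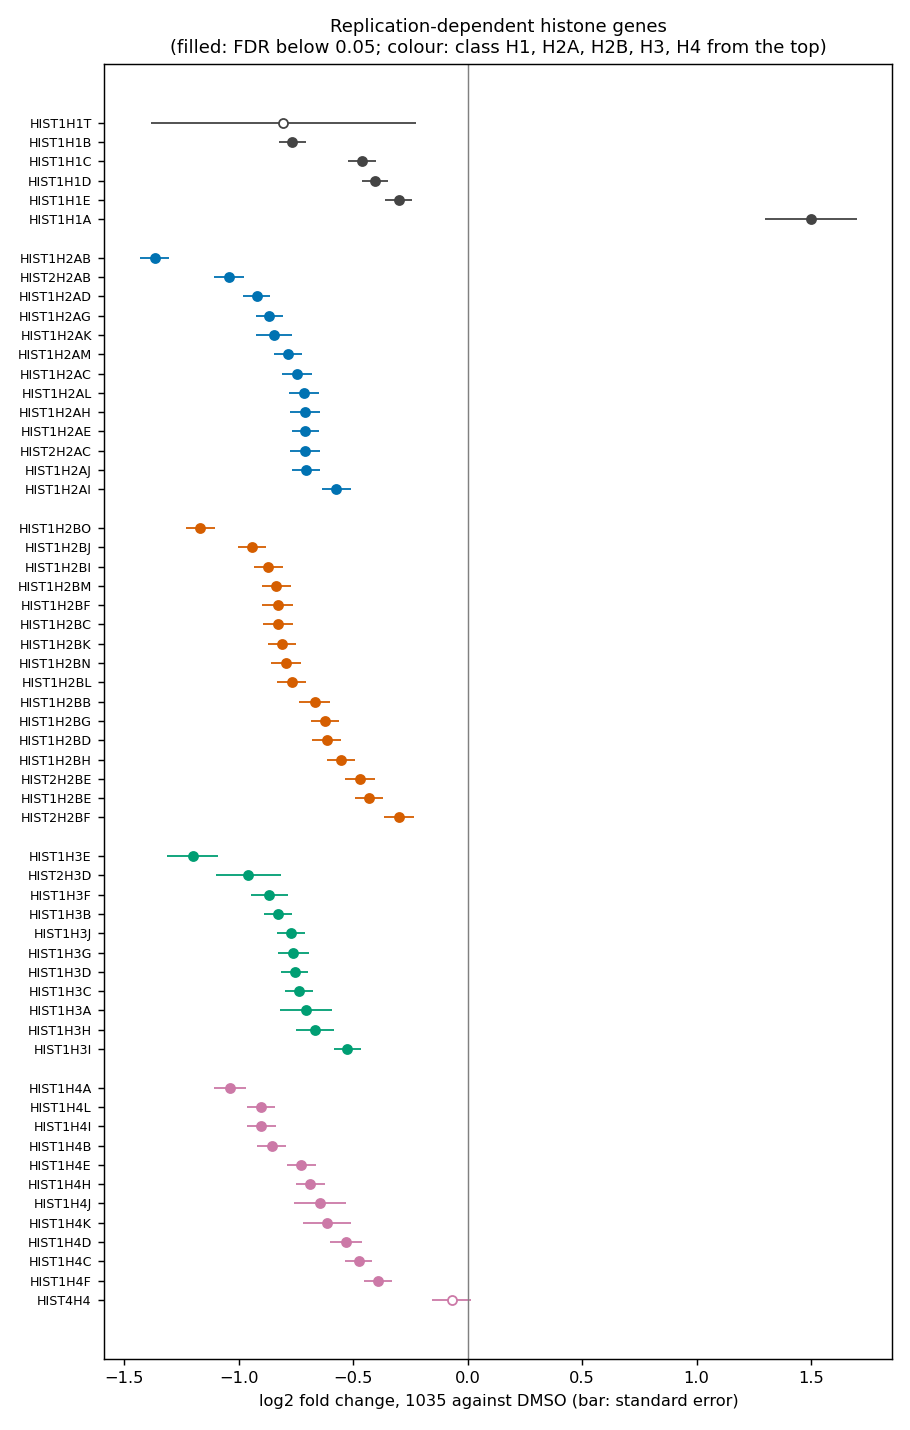
Log2 fold change of 1035 against DMSO (x axis) for the 58 genes tested, ordered within class, with bars of 1 standard error and filled points for genes past an FDR of 5%. HIST1H1A alone lies to the right at 1.50, HIST4H4 lies at -0.07, and HIST1H2AB is farthest left at -1.37.

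Among the genomic stretches, those with several genes had close medians and the lone gene on chromosome 12 did not. On GRCh38 the genes lay in 5 stretches at least 300000 bases apart. The 32 genes of chr6:26017085-26285638 had a median log2 fold change of -0.73 under 1035 (31 tested), the 5 of chr6:27125897-27147515 one of -0.87, and the 16 of chr6:27807444-27893843 one of -0.77. The 5 HIST2 genes of chr1:149782689-149887916 had a median of -0.71, and all 5 fell. HIST4H4 stood alone on chromosome 12, with -0.07. HIST1H1A and HIST1H2AB, the gene that rose and the gene that fell most, lay in the same stretch of chromosome 6.

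Most neighbours that start head to head had like log2 fold changes. In 9 pairs an H2A and an H2B gene start head to head, 218 to 330 bases apart. The 2 genes of a pair differed in their log2 fold change under 1035 by 0.08 to 0.38, with a median of 0.10, and 7 of the 9 pairs differed by less than 0.20. HIST1H2BJ and HIST1H2AG, for instance, had -0.94 and -0.87. The pairs farthest apart were HIST1H2AM with HIST1H2BO (-0.78 and -1.17) and HIST2H2BE with HIST2H2AC (-0.47 and -0.71). HIST1H3J overlaps HIST1H2AM by 350 bases on the same strand. HIST1H2BN overlaps HIST1H2AL by 393 on the same strand and HIST1H2AK by 393 on the opposite strand. The strand setting of the counting is not given, so reads of these genes could have been shared. The members of a pair are not independent, and these differences were not tested.

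**Figure D3:**
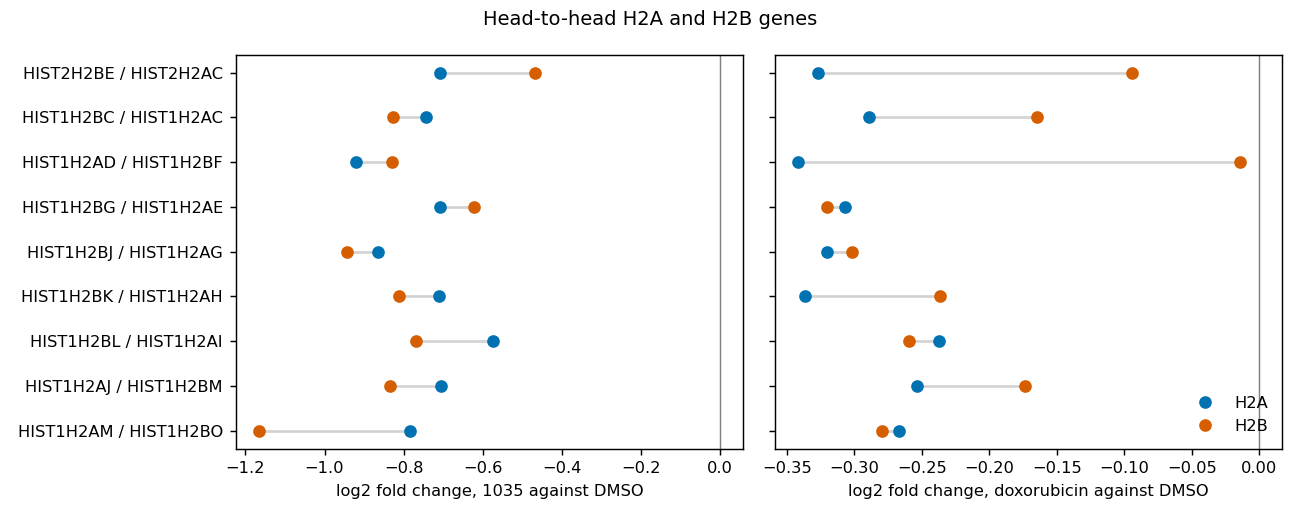
Log2 fold changes of the H2A gene (blue) and the H2B gene (orange) of each of the 9 head-to-head pairs, against DMSO, for 1035 (left) and doxorubicin (right); the x axes have different ranges. With 1035 the points of most pairs lie close together and HIST1H2AM with HIST1H2BO are farthest apart, and with doxorubicin HIST1H2AD and HIST1H2BF are farthest apart.

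By sequence feature, the 16 genes with an annotated transcript more than 100 bases past the stem-loop had a median log2 fold change of -0.71 under 1035. The median was -0.68 for the 6 whose transcript with the stem-loop ends within 100 bases, HIST1H2BD among them. It was -0.77 for the 36 tested without a stem-loop in the annotation. That last set depends on how far the annotated transcripts run. The 10 H2A genes with an octamer had a median of -0.76, and the 2 without one -0.71. In H2B the medians were -0.81 for 13 with an octamer and -0.77 for 3 without. With and without CCAAT, the medians of H4 genes were -0.90 for 3 and -0.64 for 7. With and without TATAAA they were -0.30 and -0.77 for 3 H1 genes each, -0.74 for 9 and -0.85 for 3 H2A genes, -0.77 for 11 and -0.79 for 5 H2B genes, -0.83 for 7 and -0.75 for 2 H3 genes, and -0.63 for 6 and -0.71 for 4 H4 genes. These sets are small, and no difference between them was tested. The H1 genes without TATAAA included HIST1H1T, whose counts were too few to show a difference.

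Of 7 genes listed for their known polyadenylated mRNAs, 6 fell under 1035 and HIST4H4 did not pass, with a median log2 fold change of -0.61, against -0.74 for all 58 histone genes. HIST1H2BC fell from 499.7 and 497 to 258 and 304 CPM (-0.83 ± 0.07), HIST1H2BK from 254 and 254 to 136 and 154 CPM (-0.81 ± 0.06) and HIST1H2AC from 360.2 and 342 to 196 and 224 CPM (-0.74 ± 0.07). HIST1H2BD fell from 599 and 596 to 358 and 422 CPM (-0.61 ± 0.06). These 4 lay on both sides of the family's median. HIST1H1C and HIST2H2BE, given above, fell by less than it. Counts per gene do not tell polyadenylated mRNA from the other form.

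Among the genes that make, process and use histone mRNA, most of the S phase list fell as well. Of 20 S phase genes 19 fell under 1035, against 24.8% of all genes, with a median log2 fold change of -0.51. RRM2, which with its partner subunit makes deoxynucleotides, fell from 267 and 250.3 CPM to 139.8 and 142 CPM (-0.87 ± 0.06, edgeR adjusted p = 1.99e-15). The helicase subunits MCM7 (-0.77 ± 0.06) and MCM5 (-0.68 ± 0.06) fell, and POLA1 did not pass (-0.13 ± 0.06). The list summed to 4987 to 5151 CPM in DMSO and 3434 to 3625 CPM with 1035, with no overlap. Its part in the histone result was not tested.

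The other lists are read against the 24.8% of all genes that were lower and the 24.2% that were higher under 1035, with a median of 0.01. Of 14 genes of histone transcription and the locus body, 1 rose, 6 fell and 7 did not pass, with a median log2 fold change of -0.09. CCNE2, an E-type cyclin, fell from 138 and 139 to 68.8 and 63.1 CPM (-1.07 ± 0.07, edgeR adjusted p = 6.11e-17). CDC25A, a phosphatase that activates CDK2, fell from 146 and 141 to 83.6 and 90.2 CPM (-0.72 ± 0.06), and E2F1, an S phase transcription factor, fell as well (-0.44 ± 0.06). NPAT, the coactivator of the locus body, rose from 132 and 132 to 162 and 150.3 CPM (0.25 ± 0.06, edgeR adjusted p = 7.19e-04), the opposite direction to most histone genes. CASP8AP2 (-0.11 ± 0.06), another locus body protein, HINFP (0.03 ± 0.10), which binds H4 promoters, and POU2F1 (0.01 ± 0.07) did not pass.

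Of 17 genes for cutting the 3′ end, 7 fell and 10 did not pass, with a median log2 fold change of -0.10, against 24.8% of all genes lower. SLBP fell from 191 and 187 CPM to 154 and 159.7 CPM (-0.27 ± 0.06, edgeR adjusted p = 3.16e-04), with both libraries with 1035 below both of DMSO. CPSF2, a subunit of the cleavage complex (-0.38 ± 0.06), SNRPB (-0.32 ± 0.06) and SNRPF (-0.46 ± 0.08), proteins of small nuclear ribonucleoproteins, fell. The U7 proteins LSM10 (0.23 ± 0.15) and LSM11 (0.10 ± 0.11) and the U7 partner ZNF473 (-0.09 ± 0.08) did not pass.

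Of 13 genes for translation and decay of histone mRNA, 4 rose, 2 fell and 7 did not pass, shares near those of all genes (24.2% higher and 24.8% lower), with a median log2 fold change of -0.05. CTIF, a translation factor that works with the nuclear cap-binding complex, rose from 3.89 and 3.70 CPM to 12.9 and 12.4 CPM (1.74 ± 0.16, edgeR adjusted p = 3.13e-12). The uridylyltransferases ZCCHC11 (0.49 ± 0.07) and ZCCHC6 (0.33 ± 0.07) and the 5′ exonuclease XRN1 (0.28 ± 0.06) rose. The exosome subunit EXOSC10 (-0.36 ± 0.06) and the helicase UPF1 (-0.22 ± 0.06) fell. Of 19 histone chaperone genes 13 fell, 1 rose and 5 did not pass, with a median of -0.28. IPO4, an importin that carries H3 and H4, fell from 108 and 109 to 67.1 and 75.0 CPM (-0.61 ± 0.07), MMS22L (-0.48 ± 0.06) and TONSL (-0.38 ± 0.06), which act together on new H3 and H4, fell, and ASF1A (0.25 ± 0.07) rose while its paralog ASF1B fell (-0.34 ± 0.07).

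With doxorubicin alone most of the family was lower, by smaller amounts than with 1035. Against DMSO 41 of 58 genes fell and 0 rose by edgeR's quasi-likelihood test at an FDR of 5%, against 0.545% of all genes lower and 0.784% higher, or 89 genes lower in all. The median log2 fold change of the 58 genes was -0.29, against -0.01 over all genes tested. In 54 of the 58 both doxorubicin libraries lay below both DMSO libraries, against 24.0% of all genes. The family took 1.97% and 1.84% of the reads, below both DMSO libraries, and its summed level was 81.8% of that in DMSO. The number of genes that passed rested on single libraries: it was 3 without the first DMSO library, 21 without the second, 23 without the second doxorubicin library and 47 without the first. Of the 20 genes named here that fell, 2, HIST1H2AB and HIST1H2AD, passed whichever library was left out. In the authors' deposited table for doxorubicin, 37 genes were lower and 0 higher.

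The summed H1 level with doxorubicin was 3843 and 3465 CPM, that of H2A 3799 and 3664 CPM, that of H2B 4368 and 4218 CPM, that of H3 4379.6 and 3932 CPM and that of H4 3575 and 3192 CPM. In all 5 classes both libraries lay below both DMSO and above both 1035 libraries. What was left of the DMSO level was 81.9% for H1, 81.1% for H2A, 84.8% for H2B, 79.1% for H3 and 82.2% for H4. The H1 share of histone reads, 19.2% and 18.8%, overlapped that in DMSO.

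The classes were close to each other, with median log2 fold changes of -0.28 for H1, -0.30 for H2A, -0.25 for H2B, -0.33 for H3 and -0.31 for H4. The genes that fell numbered 4 of 6, 12 of 13, 10 of 16, 7 of 11 and 8 of 12. HIST1H2AB went to 193 and 179 CPM with doxorubicin (-0.46 ± 0.06, edgeR adjusted p = 3.66e-06; at most 0.00667 with any library left out). Its doxorubicin libraries lay between those of DMSO and those of 1035. HIST1H2AD was at 342 and 353 CPM (-0.34 ± 0.06) and HIST1H2AG at 564 and 552 CPM (-0.32 ± 0.06), both below DMSO. HIST1H3H was at 359 and 294 CPM (-0.46 ± 0.08, edgeR adjusted p = 0.0109) and HIST1H4K at 25.6 and 20.4 CPM (-0.46 ± 0.10, edgeR adjusted p = 0.0118). These 2 fell as far as HIST1H2AB but with wider spread between libraries, and neither passed in every fit that left out a library. HIST2H3D had a larger log2 fold change, -0.65 ± 0.14, that did not pass (edgeR adjusted p = 0.0827), and since near-identical copies of this gene exist its counts are uncertain.

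Among the most read genes HIST1H3B was at 939 and 832 CPM (-0.33 ± 0.06), HIST1H3D at 730.4 and 708 CPM (-0.32 ± 0.06) and HIST1H3J at 509 and 491 CPM (-0.31 ± 0.06), and all 3 fell. HIST1H4D fell to 516 and 442 CPM (-0.32 ± 0.07), whereas HIST1H4C at 777 and 692 CPM (-0.21 ± 0.06, edgeR adjusted p = 0.054) and HIST1H4E at 527 and 471 CPM (-0.22 ± 0.06) did not pass. HIST1H1B was at 1398 and 1278 CPM (-0.28 ± 0.06), HIST1H1C at 1016 and 861 CPM (-0.29 ± 0.06) and HIST1H1E at 767 and 713 CPM (-0.28 ± 0.06), and all 3 fell. These 3 H1 genes thus had nearly the same log2 fold change with doxorubicin in the main fit. With a library left out, HIST1H1B ran from -0.34 to -0.22, HIST1H1C from -0.42 to -0.18 and HIST1H1E from -0.33 to -0.23. HIST1H1D, also an abundant H1 gene, had the lowest of the class, -0.32. HIST1H2AE fell to 487 and 470.2 CPM (-0.31 ± 0.06) and HIST1H2AH to 374 and 339.5 CPM (-0.34 ± 0.06).

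In H2B, HIST1H2BO fell to 211 and 212 CPM (-0.28 ± 0.06), HIST1H2BJ to 251 and 242 CPM (-0.30 ± 0.06) and HIST1H2BH to 576 and 553 CPM (-0.23 ± 0.06). HIST1H2BF, which fell with 1035, had -0.01 ± 0.07 with doxorubicin and did not pass, while its head-to-head neighbour HIST1H2AD fell. Of the 5 HIST2 genes 1 fell, and HIST2H2BE at 152 and 153 CPM (-0.09 ± 0.06) did not pass. Of the 7 genes with known polyadenylated mRNAs 4 fell: HIST1H1C, HIST1H2AC at 291 and 284 CPM, HIST1H2BD at 507 and 475 CPM and HIST1H2BK at 216 and 215 CPM. HIST1H2BC at 451 and 438 CPM (-0.16 ± 0.06) did not pass.

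The genes outside the bulk of the family with 1035 were these with doxorubicin. HIST1H1A had 2.63 and 3.23 CPM, which overlapped DMSO (0.08 ± 0.23, edgeR adjusted p = 0.922). HIST4H4 had 51.9 and 43.8 CPM, both below both DMSO libraries, and did not pass (-0.25 ± 0.09, edgeR adjusted p = 0.159). HIST1H3E had 24.7 and 22.9 CPM and did not pass (-0.12 ± 0.10). HIST1H1T had 12 and 11 counts.

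**Figure D4:**
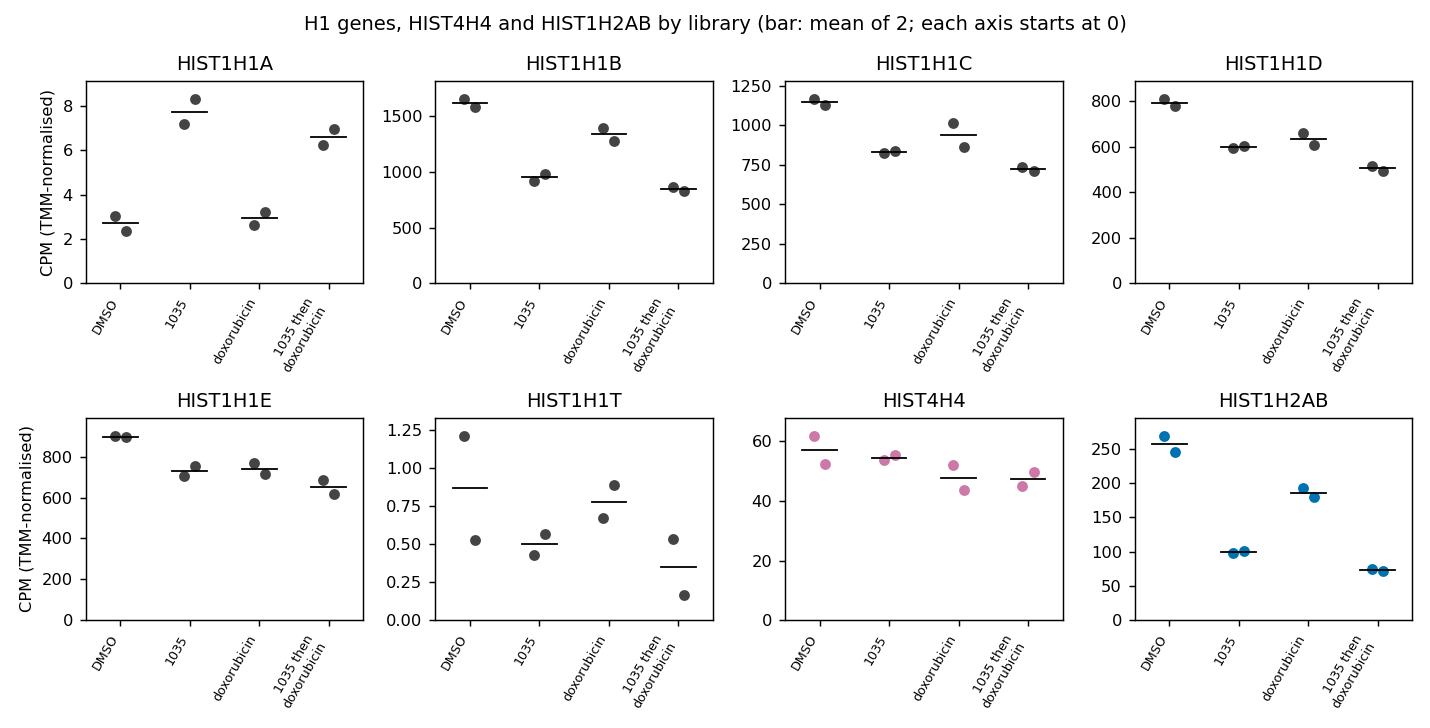
TMM-normalised CPM of the 6 H1 genes, HIST4H4 and HIST1H2AB in each library (points) with the mean of 2 (bar), on linear axes that start at 0 and differ between panels. HIST1H1A is high in the 4 libraries given 1035, HIST1H2AB is lowest in the combination, and HIST4H4 with 1035 overlaps DMSO.

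With doxorubicin the 20 S phase genes had a median log2 fold change of -0.16. Of these 18 did not pass and 2 fell, against 0.545% of all genes lower and 0.784% higher. GINS2 (-0.26 ± 0.07, edgeR adjusted p = 0.0477) and MCM2 (-0.23 ± 0.06, edgeR adjusted p = 0.0337), parts of the replicative helicase, were these 2. In the other lists, SLBP fell to 161 and 159 CPM (-0.24 ± 0.06, edgeR adjusted p = 0.0354) and CCNE2 to 115 and 113 CPM (-0.28 ± 0.06, edgeR adjusted p = 0.0109). NPAT did not pass (-0.13 ± 0.06), and none of the 13 decay genes or 19 chaperone genes passed. The S phase list summed to 4515 to 4604 CPM, below both DMSO libraries, and its part in the histone result was not tested.

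With doxorubicin after 1035 most of the genes were lower than with 1035 alone, and a minority of them passed in the main fit. Against 1035 alone 18 of 58 genes fell and 0 rose by edgeR's quasi-likelihood test at an FDR of 5%, against 0.147% of all genes lower, or 24 genes, and 0.349% higher. The median log2 fold change of the 58 genes was -0.23, against 0.00 over all genes tested, and in 52 of the 58 both libraries of the combination lay below both of 1035, against 17.8% of all genes. The family took 1.31% and 1.26% of the reads, less than in any library of another group, and its summed level was 85.8% of that with 1035. The count that passed again rested on single libraries. It was 1 without the second library of the combination, 2 without the second 1035 library, 5 without the first library of the combination, 30 without the first 1035 library and 31 without either doxorubicin library. It was 30 when only the 4 libraries compared entered the fit. The authors' deposited table, which lacks HIST1H1T and HIST1H2APS4, has 10 of 57 genes lower and 0 higher.

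By class, 9 of 13 H2A genes passed, against 5 of 16 H2B, 2 of 12 H4, 1 of 11 H3 and 1 of 6 H1 genes. These are calls of the main fit, which rested on single libraries. The class medians were -0.31 for H2A, -0.24 for H2B, -0.22 for H1, -0.20 for H3 and -0.19 for H4, and the difference between classes was not tested. The summed H2A level was 2225 and 2104 CPM, below both 1035 libraries. HIST1H2AB fell from 97.9 and 102 CPM with 1035 to 74.3 and 71.6 CPM in the combination (-0.45 ± 0.07, edgeR adjusted p = 5.95e-05; at most 0.0273 with any library left out). It alone of the 7 named genes that fell passed in every such fit. HIST1H2BJ fell to 124 and 117 CPM (-0.40 ± 0.06, edgeR adjusted p = 1.51e-04), HIST1H2AD to 185 and 181 CPM (-0.34 ± 0.06, edgeR adjusted p = 5.97e-04) and HIST1H2AG to 309 and 305 CPM (-0.32 ± 0.06, edgeR adjusted p = 0.00151). All lay below both 1035 libraries. HIST1H3D fell to 444 and 428 CPM (-0.29 ± 0.06), HIST1H2AH to 231 and 214 CPM (-0.31 ± 0.07) and HIST1H2AC to 181 and 157 CPM (-0.31 ± 0.07).

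Most of the abundant H3, H4 and H1 genes did not pass here. HIST1H3B was at 568 and 574 CPM (-0.14 ± 0.06), HIST1H4C at 557 and 533 CPM (-0.17 ± 0.06) and HIST1H1B at 869 and 829 CPM (-0.17 ± 0.06). Each of these was below both 1035 libraries all the same. HIST1H1E at 686 and 617 CPM (-0.16 ± 0.06), HIST1H1C at 736 and 710.1 CPM (-0.20 ± 0.06) and HIST1H2BO at 102 and 97.5 CPM (-0.20 ± 0.07) also were below 1035 and did not pass. HIST1H3E at 11.2 and 11.6 CPM overlapped 1035 (0.01 ± 0.13). HIST1H1A at 6.23 and 6.94 CPM lay below both 1035 libraries and did not pass (-0.23 ± 0.18). HIST4H4 had 44.9 and 49.7 CPM (-0.21 ± 0.09, edgeR adjusted p = 0.628). Of the 5 pathway lists, S phase genes included, no gene passed in this comparison, against 0.147% of all genes lower and 0.349% higher.

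Among cells given doxorubicin, nearly the whole family was lower where 1035 came first. Against doxorubicin alone 55 of 58 genes fell and 1, HIST1H1A, rose in the combination, against 22.0% of all genes lower and 21.8% higher, with a median log2 fold change of -0.69, against 0.00 over all genes tested. Both libraries of the combination lay below both doxorubicin libraries in 56 of 58 genes, against 33.9% of all genes. The summed level was 65.2% of that with doxorubicin. HIST1H2AB (-1.35 ± 0.07), HIST1H2BO (-1.08 ± 0.06) and HIST1H3E (-1.07 ± 0.11) fell most. HIST1H1A rose from 2.63 and 3.23 to 6.23 and 6.94 CPM (1.19 ± 0.21, edgeR adjusted p = 7.37e-06). HIST4H4 (-0.03 ± 0.09, edgeR adjusted p = 0.845) and HIST1H1T (-1.09 ± 0.64, edgeR adjusted p = 0.176) did not pass. HIST1H1E, with the smallest log2 fold change of those that fell (-0.18 ± 0.06, edgeR adjusted p = 0.0107), and HIST1H4K (-0.44 ± 0.11) did not pass in every fit that left out a library. The authors' deposited table has 53 genes lower and 1 higher. NPAT rose here too (0.40 ± 0.06), CTIF rose (1.41 ± 0.15), CCNE2 fell (-0.84 ± 0.07), and SLBP did not pass (-0.09 ± 0.06). Of 20 S phase genes 18 fell.

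The effect of 1035 without doxorubicin and its effect with doxorubicin rest on different libraries. Across the 58 genes the log2 fold changes of 1035 against DMSO and of the combination against doxorubicin had Pearson's r of 0.94 and Spearman's rho of 0.86. Across the 56 with a mean count of at least 50 and without HIST1H1A, r was 0.89 and rho 0.86. For doxorubicin against DMSO and the combination against 1035, which also share no library, r was 0.23 and rho 0.30 over 58 genes, and 0.32 and 0.35 over the 56. These values are across genes, which are not independent replicates and share libraries within a comparison, and are descriptions only.

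**Figure D5:**
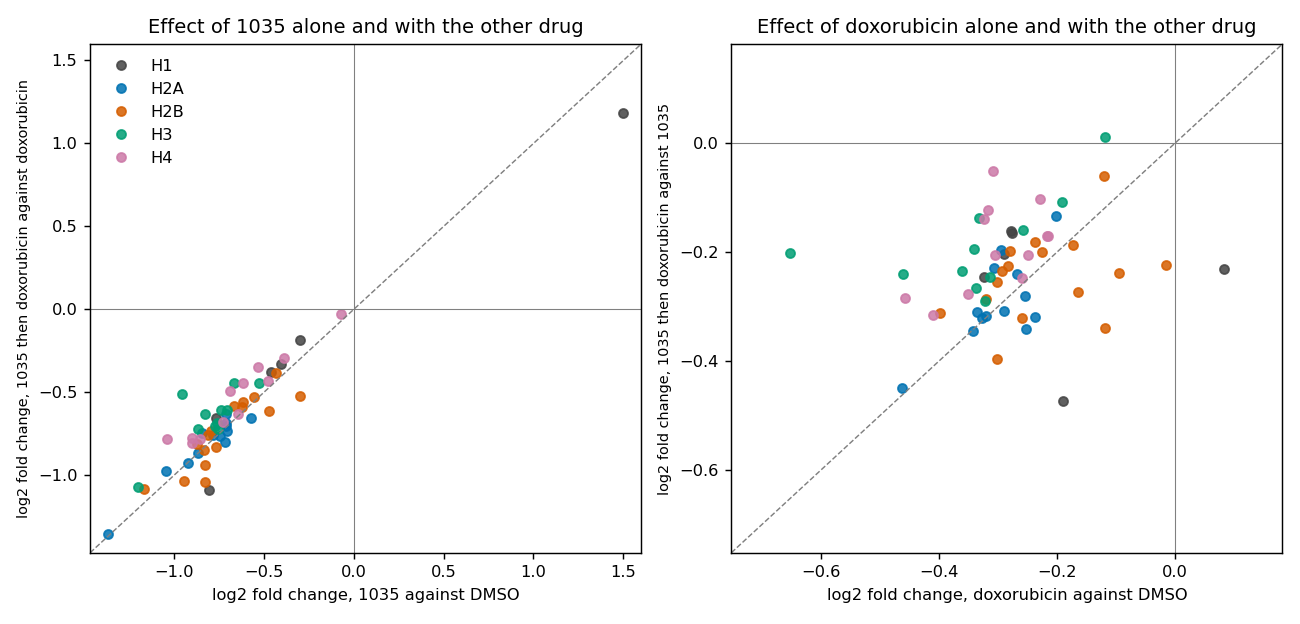
Log2 fold changes of the 58 genes, coloured by class, for 1035 (left) and doxorubicin (right), alone (x axis) and in cells also given the other drug (y axis), with the line of equal values dashed. On the left the points follow the line from HIST1H2AB at -1.37 and -1.35 to HIST1H1A at 1.50 and 1.19, and on the right nearly all points lie between -0.50 and 0 with little order.

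The combination had the lowest sum of every class. Against DMSO 56 of 58 genes fell and 1 rose, against 24.7% of all genes lower and 24.5% higher, with a median log2 fold change of -0.99, against 0.01 over all genes tested. Both libraries lay below both DMSO libraries in 56 of 58, against 36.9% of all genes. The summed level was 53.4% of that in DMSO, 47.0% for H2A, 50.9% for H3, 51.4% for H2B, 57.5% for H4 and 61.3% for H1. HIST1H2AB fell most of the 58 genes, with a log2 fold change of -1.82 ± 0.06, and HIST1H2BO (-1.36 ± 0.06), HIST1H2BJ (-1.34 ± 0.06) and HIST1H2AD (-1.27 ± 0.06) came next. HIST4H4, which passed in no other comparison, fell (-0.27 ± 0.09, edgeR adjusted p = 0.00884), though its adjusted p reached 0.276 with a library left out. HIST1H1A rose (1.27 ± 0.21, edgeR adjusted p = 2.05e-06), and HIST1H1T did not pass.

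No histone gene passed the test of an interaction, that is, of a difference between the effect of 1035 with and without doxorubicin. By edgeR's quasi-likelihood test 0 of 58 passed in either direction, against 0% of all genes lower and 0.0184% higher, or 3 genes, and 0 passed by DESeq2. At an unadjusted p below 0.05 by the same test there were 5 of 58, against 786 of all 16320 genes tested. Above 0 were HIST1H4A (0.26 ± 0.10), HIST1H4H (0.19 ± 0.09) and HIST1H3B (0.19 ± 0.09). Below 0 were HIST2H2BF (-0.22 ± 0.09) and HIST1H2BF (-0.21 ± 0.10). All 5 had an edgeR adjusted p of 0.952. Without the first doxorubicin library, which leaves 1 library in that group, HIST2H3D was at 0.71, HIST1H4A at 0.39 and HIST1H3H at 0.37. The median standard error of these differences was 0.09 on the log2 scale, so differences of that size were not detectable. The class medians were 0.08 for H1, 0.01 for H2A, 0.03 for H2B, 0.13 for H3 and 0.10 for H4.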

How the data were processed

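The 8 libraries, 2 for each treatment, were sequenced as single reads of 50 bases from a stranded kit after depletion of ribosomal RNA. The tools that the submitters' processing notes name are Novoalign 2.08.01 and DESeq2 1.4.5, and the build is hg19. The sources used here do not give the read counter, the annotation or the strand setting. Reads of overlapping genes and near-identical copies are therefore uncertain. The authors deposited 4 tables, each of which holds raw counts of reads per gene, FPKM values, a log2 fold change and an adjusted p-value, per the file headers. Only the counts were tested. The deposited FPKM values served to compute gene lengths, and the authors' log2 fold change and adjusted p-value are given only where named as theirs.

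The tables were joined by gene identifier, and counts that more than 1 table holds were the same (132880 values compared). Of 17849 genes 16608 had counts in all 8 libraries, and filterByExpr of edgeR 4.0.16 (R 4.3.3) left 16320. Depth was 11760542 to 18144670 reads per library. Counts were scaled by TMM (CPM are per 1000000 scaled reads) and fitted with edgeR's robust quasi-likelihood model with 4 group means over all 8 libraries. The model had 4 residual degrees of freedom, with a common biological coefficient of variation of 4.57%. P-values, from two-sided tests, were adjusted by Benjamini-Hochberg over all genes, and the procedure was tested on simulated data. The series calls the 2 samples of a treatment independent without saying how they were made, so p-values measure the spread between these samples.

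The genes, lists and tests were chosen with earlier results of these data known. Genes named with a value in every library were the 3 most read of each class, the 3 with the largest rise and fall that passed in each comparison, those that went against the family or did not pass with 1035, and those with known polyadenylated mRNAs. Others are named as the ends of a range or as pairs, chosen after their values were seen. In the other lists the 3 smallest p and SLBP, NPAT, CASP8AP2, LSM10, LSM11 and ZNF473 are named. No p is given for a class, cluster or list. Of 18 genes of 3′ processing RNU7-1, and of 4 testis histone genes HIST1H2AA, HIST1H2BA and HIST3H3, were not analysed here. GENCODE v29 placed all 59 genes by symbol, 28 of them with the same identifier. Alternatives were DESeq2 1.42.0, other scalings, filters and tests, the replicate number as a block, and leaving out each library.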

Additional observations from a re-analysis of the deposited data

How the results depend on the processing

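Direction and count of calls for 1035 against DMSO and for the combination against doxorubicin and DMSO kept within 1.5 times under all alternatives tried: 55 lower throughout in the first, 53 to 55 and 55 to 58 lower with a library left out in the others. For doxorubicin against DMSO, leaving out a library gave 3 to 47 lower, DESeq2 38 and total counts alone 33. For the combination against 1035 it gave 1 to 31, DESeq2 19, and a fit of the 4 libraries compared 30. The interaction gave 0 to 3 higher. The causes were not tested. Where a fit left an arm with 1 library, that library was assumed to vary like the other groups.

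With total counts alone the median log2 fold change of H1 was -0.36 for 1035 against DMSO, and for the combination against DMSO it was -0.58 for H1, -0.96 for H2A and -0.91 for H2B. With a library left out these ran from -0.46 to -0.34, from -0.68 to -0.59, from -1.08 to -0.99 and from -1.04 to -0.92. Single genes that did not pass changed sign. With total counts alone HIST4H4 was at 0.00015 for 1035 against DMSO and 0.021 for the combination against doxorubicin. With a library left out it ran from -0.18 to 0.055 and from -0.13 to 0.11. Likewise HIST1H1A ran from -0.082 to 0.28 and HIST1H1T from -0.65 to 0.53 with doxorubicin against DMSO, and in the combination against 1035 HIST1H1T ran from -1.54 to 0.10 and HIST1H3E from -0.091 to 0.11.

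With the replicate number as a block, 55, 43, 20, 55 and 56 genes were lower in 1035 against DMSO, doxorubicin against DMSO, and the combination against 1035, doxorubicin and DMSO, and 0 passed in the interaction. Same-numbered libraries did not deviate together (correlations of -0.08 to 0.08 over 12067 genes). These values do not tell how the samples were made. Depth limits HIST1H1T and HIST1H2APS4, which had few reads.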
